A study of Homo sapiens with 24 samples.

Results

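Box C/D small nucleolar RNAs (snoRNAs) are short non-coding RNAs whose genes carry the prefix SNORD. The rows described here are those with a SNORD name and a mean of at least 5 counts over the 24 libraries. This rule kept 96 of the 389 SNORD rows, among 60658 genes in the count tables. The 96 rows carry 94 names, because SNORD19 and SNORD19B each stand in 2 rows with different gene identifiers. The mean count chose the rows, so the levels are given as a description. Of the other 293 SNORD rows, 211 had 0 counts in every library. Just inside the limit lay SNORD63 with a mean of 6.29 counts (0 to 15 per library), SNORD11 with 6.13 (1 to 24) and SNORD67 with 6.08 (1 to 19). Just outside it lay SNORD11B with 4.92 counts (0 to 17), a second SNORD63 row with 4.42 (0 to 11) and SNORD12C with 4.38 (0 to 20).

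A box C/D snoRNA carries a C box near its 5′ end and a D box near its 3′ end, and these bind a core of SNU13, NOP56, NOP58 and the methyltransferase fibrillarin (FBL). Most of these particles guide 2′-O-methylation of ribosomal RNA, some act on the U6 spliceosomal RNA, and U3, U8 and U14 take part in cleaving the ribosomal RNA precursor. In human cells most are cut out of introns of host genes, many of which encode ribosomal proteins or ribosome assembly factors, and the mature form has no poly(A) tail.

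The study depleted the circular RNA ciRS-7 (CDR1as) in cells labelled SH-SY5Y, a human neuroblastoma line, and harvested them after 48 h. Each of 4 setups had 3 knockdown libraries (KD) and 3 control libraries, labelled NTC. In the agoshRNA setup the cells received a vector that expresses a short hairpin. The gRNA and pre-gRNA setups combined a CasRx-GFP plasmid, which encodes CasRx, an RNA-cleaving Cas13 enzyme, with a second plasmid for a mature or a precursor guide. For syn-gRNA a chemically synthesised guide was used, and the labels do not describe how it was delivered. The labels do not give the sequence that an NTC hairpin or guide carries. RNA was poly(A)-selected and sequenced without strand information as paired reads of 100 nt, longer than most of the 96 rows, whose median length was 78 nt (64 to 699 nt). Counts assigned to a SNORD row therefore cannot tell mature snoRNA apart from host intron, readthrough or tailed RNA over the same bases.

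Library totals ran from 10994974 to 16233777 counts. No label ties the 3 libraries of a group to separate cultures, so p-values measure only the spread between these libraries, which may be technical. Setup, delivery and any batch of a setup cannot be told apart. Of 6 noradrenergic neuroblastoma markers, PHOX2A, STMN2 and ELAVL4 averaged 0.09, 0.04 and 0.03 counts per 1000000 counts of the library (CPM), against 35.65 for GATA2, 21.43 for HAND1 and 13 for CHRNA3. The kidney-lineage markers HOXA9, HOXA10, HOXA11 and PAX2 averaged 98.18, 85.05, 43.62 and 10.97 CPM, so the labelled cell type lacked part of its defining markers. The row of the targeted transcript, CDR1-AS, held 0 to 15 counts in KD libraries (median 5) and 2 to 16 in NTC libraries (median 8), too few to check the depletion of a circular RNA in poly(A)-selected RNA.

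Sequences of 92 of the 96 rows were found by gene identifier among the GENCODE 29 transcripts (GRCh38). The set below shows 3 snoRNAs of the U14 type that lie within HSPA8 and moved furthest between setups among the abundant rows, 3 from other hosts that were also higher in syn-gRNA, and SNORD96A and SNORD88C, which passed no test. Capitals mark TGATGA, the core of the C box, within the first 20 bases and CTGA, the D box, within the last 20 bases.
SNORD14E, chr11:123058077-123058161, minus strand: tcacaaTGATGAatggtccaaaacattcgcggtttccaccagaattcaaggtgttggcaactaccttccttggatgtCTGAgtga
SNORD14C, chr11:123059335-123059422, minus strand: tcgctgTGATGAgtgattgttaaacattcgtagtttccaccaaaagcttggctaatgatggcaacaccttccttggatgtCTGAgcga
SNORD14D, chr11:123058909-123058995, minus strand: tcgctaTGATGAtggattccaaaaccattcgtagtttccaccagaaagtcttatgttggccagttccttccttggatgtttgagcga
SNORD33, chr19:49490615-49490699, plus strand: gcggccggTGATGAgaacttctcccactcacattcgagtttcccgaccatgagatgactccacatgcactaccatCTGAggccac
SNORD73A, chr4:151103827-151103891, plus strand: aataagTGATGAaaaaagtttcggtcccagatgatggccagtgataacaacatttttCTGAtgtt
SNORD82, chr2:231460371-231460440, minus strand: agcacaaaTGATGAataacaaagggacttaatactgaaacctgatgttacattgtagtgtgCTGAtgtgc
SNORD96A, chr5:181241814-181241892, minus strand: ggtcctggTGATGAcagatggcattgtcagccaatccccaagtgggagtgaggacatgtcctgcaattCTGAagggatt
SNORD88C, chr19:50802328-50802418, minus strand: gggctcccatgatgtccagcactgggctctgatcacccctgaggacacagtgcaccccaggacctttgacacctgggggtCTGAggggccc
SNORD14D has no exact CTGA at its 3′ end and SNORD88C no exact TGATGA near its 5′ end. The U14-type sequences shown were 75.6% (SNORD14E and SNORD14C), 77.3% (SNORD14E and SNORD14D) and 77.8% (SNORD14C and SNORD14D) identical, so a full-length read can tell these 3 apart. Other copies, such as SNORD14A and SNORD14B, were not compared. TGATGA stood in the first 20 bases of 58 of the 92 sequences (63.0%) and CTGA in the last 20 bases of 88 (95.7%). Among all 278 SNORD transcripts of that release the shares were 69.1% and 95.7%. Both motifs were searched on the transcript strand only.

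The 96 rows together took a larger share of the counts in the syn-gRNA libraries than in any other setup. Summed over the rows, the KD libraries of syn-gRNA had 766.9, 1186.2 and 1563.3 CPM and its NTC libraries 630.5, 1117.5 and 1183.1 CPM. The agoshRNA libraries had 176.7, 392.2 and 225.8 CPM (KD) and 194.2, 350.2 and 286.6 CPM (NTC). The gRNA libraries had 200.2, 446.5 and 254.9 CPM (KD) and 266.4, 427.7 and 263.2 CPM (NTC), and the pre-gRNA libraries 274.1, 261.8 and 255.6 CPM (KD) and 217.4, 228.4 and 248.0 CPM (NTC). The lowest syn-gRNA library thus lay above the highest of the other 18, and the ratio of the 2 means was 3.89. As a share of all counts, the rows made up 0.1172% in syn-gRNA KD and 0.0977% in syn-gRNA NTC, against 0.0231% to 0.0319% in the other 6 groups. Spread within a group was wide: the SD over 3 libraries was 398.4 and 301.9 CPM in syn-gRNA KD and NTC, and 9.4 and 15.5 CPM in pre-gRNA. In bulk RNA, fewer cells with such RNA and less of it per cell cannot be told apart.

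**Figure D1:**
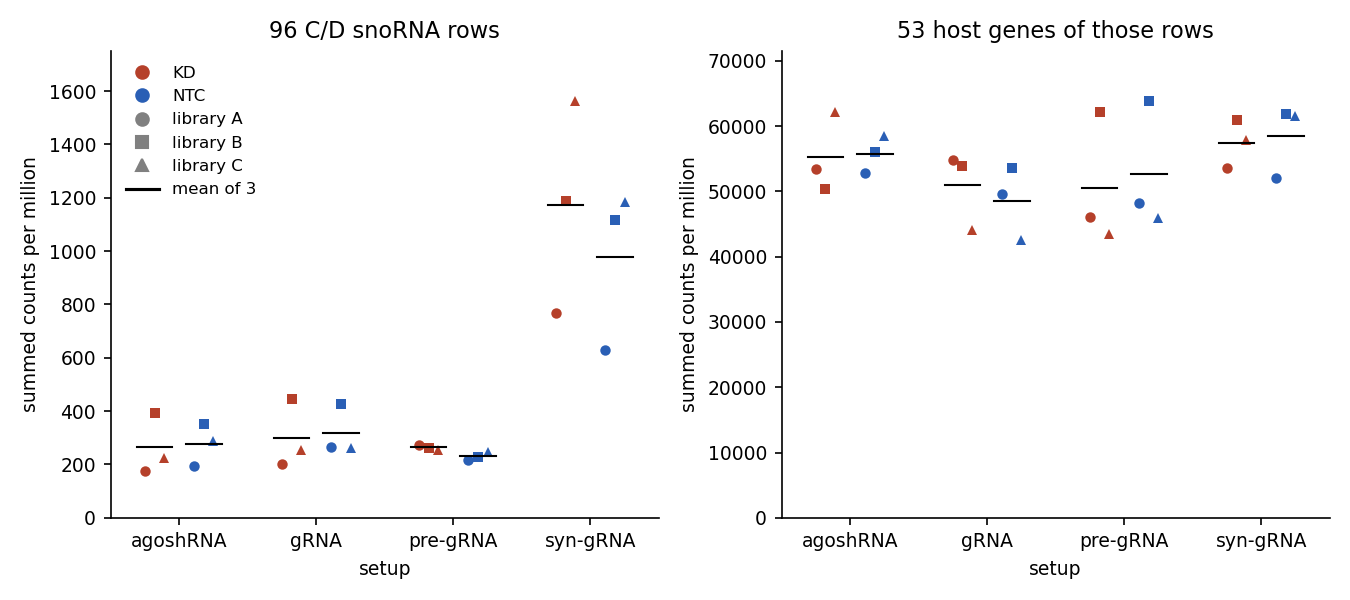
Summed CPM of the 96 C/D snoRNA rows (left) and of their 53 host genes (right) in each library, by setup. Colours give the arm, shapes the column letter and bars the mean of 3 libraries. The syn-gRNA libraries lie from 630.5 to 1563.3 CPM in the left panel, all above the other 18, whereas the summed levels of the host genes overlap between setups.

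Tested gene by gene with DESeq2 in 1 fit of the 24 libraries, C/D snoRNA rows were higher in syn-gRNA than in each other setup, in both arms. SNORD11 did not reach the filter of 10 counts in 3 libraries, which left 95 rows among 20172 genes. A call means a Benjamini-Hochberg adjusted p under 0.05. DESeq2 adjusted with its default independent filtering, which can leave out genes of low mean count, and edgeR adjusted over all genes tested. Shares of all genes are of the 20172. In the KD arm, 53 rows were called higher against agoshRNA, where 1.73% of all genes were called higher and 1.42% lower. Against gRNA KD the count was 49 (1.14% of all genes higher, 0.441% lower), and against pre-gRNA KD it was 52 (1.87% higher, 0.644% lower). In the NTC arm, 40 rows were called higher against agoshRNA (1.03% of all genes higher, 0.813% lower), 28 against gRNA (0.848% higher, 0.471% lower) and 55 against pre-gRNA (2.08% higher, 1.17% lower). None was called lower by DESeq2 or edgeR, and none that was lower had an unadjusted p under 0.05 by either tool. The share of called rows lay above that of all genes in each comparison. The 3 comparisons of an arm share their syn-gRNA libraries and are not independent of each other.

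Sizes were similar in the 6 comparisons. The median log2 difference over the 95 rows was 1.96, 1.91 and 2.13 in the KD arm (against agoshRNA, gRNA and pre-gRNA) and 1.72, 1.69 and 2.01 in the NTC arm. All genes had medians of -0.02, -0.04 and -0.06 and of 0.01, -0.02 and -0.04. Between 88 and 93 of the 95 rows had a log2 difference above 0. The arms have no library in common, but they are not independent of each other. Both come from the same fit. Within each setup, KD and NTC libraries of the same column letter deviated together (r from 0.361 to 0.975). Against agoshRNA, 39 rows were called in both arms (73.6% of the KD list and 97.5% of the NTC list). The counts were 28 against gRNA (57.1% and 100%) and 50 against pre-gRNA (96.2% and 90.9%). The share of all genes called in both arms is not given here, so this overlap is a description.

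How many rows passed depended on the tool, and the tools also differed in which genes entered the adjustment. The edgeR quasi-likelihood test called 26, 11 and 39 rows in the KD arm and 1, 0 and 27 in the NTC arm (0.719%, 0.178%, 0.833%, 0.0496%, 0% and 0.625% of all genes called higher). At an unadjusted p under 0.05 the tools were close. DESeq2 gave 74, 70 and 75 rows in the KD arm (15.2%, 13.4% and 14.8% of all genes) and 71, 67 and 75 in the NTC arm (12.4%, 11.8% and 17.8%). The edgeR counts were 74, 67 and 74 (14.8%, 12.4% and 13.8%) and 68, 66 and 74 (11.6%, 11% and 16.4%). Leaving out syn-gRNA KD C lowered the DESeq2 counts of the KD arm to 16, 11 and 29, and leaving out syn-gRNA NTC C lowered those of the NTC arm to 5, 4 and 26. The median log2 difference stayed between 1.49 and 2.51 whichever library was left out.

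A count without a model gave the same direction. In 56 of the 95 rows, each of the 6 syn-gRNA libraries had more CPM than each of the other 18, against 2.19% of all genes. No row had all 6 below, against 1.32% of all genes. For no other setup did its 6 libraries stand apart in any row, above or below (0.0545% and 0.0397% of all genes for agoshRNA, 0% and 0% for gRNA, 0% and 0.00496% for pre-gRNA). Since a row could enter the set through high syn-gRNA counts alone, the mean was also taken over the other 18 libraries. It was still at least 5 counts for 93 of the 96 rows, the exceptions being SNORD53, SNORD11 and SNORD82. Those 93 had called counts of 52, 48 and 51 (KD) and 40, 27 and 54 (NTC), and 55 of them lay above all 18.

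**Figure D2:**
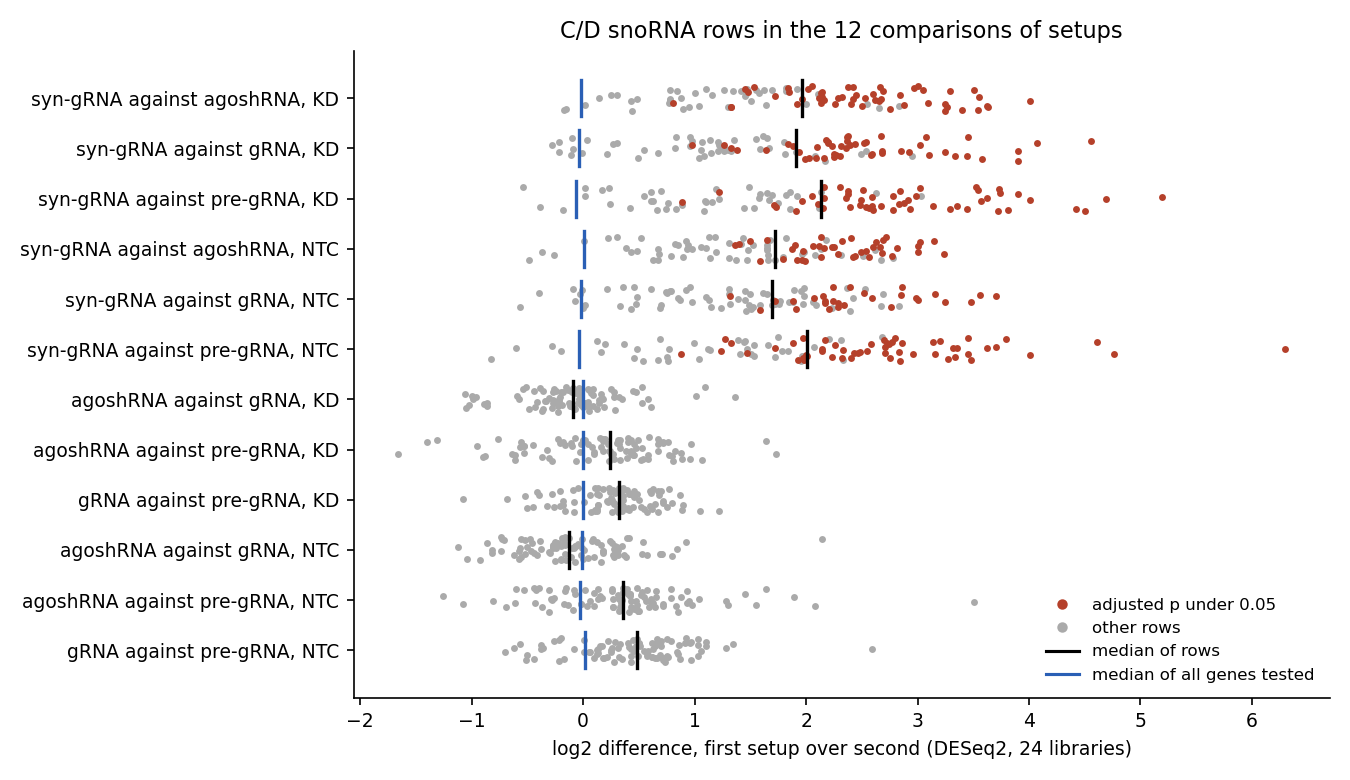
Log2 difference of each tested C/D snoRNA row in the 12 comparisons of setups within an arm, from the DESeq2 fit of 24 libraries (1 point per row, red where called). Black bars mark the median of the rows and blue bars that of all genes. In the 6 comparisons with syn-gRNA the row medians lie from 1.69 to 2.13, and in the other 6 from -0.13 to 0.48; the point farthest right is SNORD82 against pre-gRNA NTC, a group with 1 count in all.

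Among the snoRNAs that take part in precursor cleavage, the U14 family of HSPA8 moved most. SNORD14E (hg19 chr11:122928785-122928869) had 17.03, 40.95 and 71.03 CPM in syn-gRNA KD and 14.76, 41.19 and 36.57 CPM in syn-gRNA NTC. The agoshRNA libraries had 0.73, 7.48 and 2.31 CPM (KD) and 1.6, 7.96 and 4.63 CPM (NTC). The gRNA libraries had 0.82, 3.52 and 1.37 and 2.13, 5.75 and 1.26 CPM, and the pre-gRNA libraries 1.58, 0.91 and 1.29 and 1.23, 1.13 and 1.16 CPM. The ranges do not touch, and the mean of the syn-gRNA libraries was 14.19 times that of the other 18. DESeq2 gave log2 differences of 3.55 (SE 0.73, adjusted p = 0.000454) against agoshRNA KD and 5.19 (SE 0.75, adjusted p = 7.13e-08) against pre-gRNA KD. In the NTC arm they were 2.68 (SE 0.73, adjusted p = 0.0217) and 4.76 (SE 0.75, adjusted p = 1.23e-06). SNORD14D had 21.2 to 98.95 CPM in syn-gRNA and 1.41 to 11.11 CPM elsewhere, 11.64 times in the means, and SNORD14C was 13.09 times higher. HSPA8 itself, a constitutive chaperone of the HSP70 family, ran from 1503 to 2200 CPM in syn-gRNA. Its mean log2 difference over the 6 comparisons was 0.90. The syn-gRNA range overlapped that of agoshRNA (974 to 1919 CPM) but lay above gRNA (678 to 1337 CPM) and pre-gRNA (597 to 1248 CPM). DESeq2 called HSPA8 higher against gRNA KD (log2 1.16, adjusted p = 0.0323), pre-gRNA KD (1.22, 0.0148) and pre-gRNA NTC (1.26, 0.00973), and not in the other comparisons.

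U3 and U8, which act in the same process, passed no test. SNORD3A (U3) had 3.77, 6.0 and 8.55 CPM in syn-gRNA KD, 2.42, 5.02 and 7.37 in syn-gRNA NTC, 2.48, 10.13 and 6.85 in agoshRNA KD and 4.18, 11.51 and 4.87 in agoshRNA NTC. The gRNA and pre-gRNA libraries ran from 0.58 to 4.34 CPM. The agoshRNA and syn-gRNA values of SNORD3A overlapped, and it was called in 0 of the 6 comparisons with syn-gRNA. Its largest difference outside them was agoshRNA NTC over gRNA NTC (log2 2.14, SE 0.8, unadjusted p = 0.00715), with a DESeq2 adjusted p of 1.0. SNORD118 (U8), whose variants cause a cerebral white matter disease, had 4 to 11 counts in syn-gRNA and 0 to 14 elsewhere. Of the 12 rows of the cleavage list, 7 were in the set and 5, all of the U14 type, were called at least once. U3 has near-identical copies, of which SNORD3B-1, SNORD3B-2 and SNORD3C averaged 3.58, 3.96 and 0.92 counts, so the split between copies is uncertain.

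The methylation guides of RPL13A, whose snoRNAs have been linked to the response to oxidative and lipid stress, were all called at least once. SNORD33 (hg19 chr19:49993872-49993956) had 15.52, 43.24 and 45.57 CPM in syn-gRNA KD and 13.55, 34.08 and 36.57 CPM in syn-gRNA NTC, against 1.29 to 7.94 CPM (median 3.11) elsewhere. Its log2 differences ran from 2.86 to 3.57. SNORD32A had 12.61 to 49.57 CPM in syn-gRNA and a median of 5.91 CPM elsewhere, and SNORD35A and SNORD34 had syn-gRNA means 6.5 and 4.78 times those of the other libraries. RPL13A itself, which encodes a protein of the large ribosomal subunit, had a mean log2 difference of 0.07.

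The most abundant rows per length differed by between 1.69 and 11.64 times. SNORD58B, which lies in RPL17, had the highest level (331.68 CPM per kb over 24 libraries), followed by SNORD73A (251.2), SNORD36A (241.81), SNORD14D (191.58) and SNORD86 (187.7). SNORD58B had 35.42, 32.43 and 36.56 CPM in syn-gRNA KD and 30.8, 37.75 and 38.34 in syn-gRNA NTC, against 10.13 to 24.83 elsewhere. These ranges do not overlap, yet the mean was only 2.02 times that of the other libraries, and DESeq2 called it against pre-gRNA NTC alone (log2 1.27, SE 0.38, adjusted p = 0.0339). SNORD36A, in RPL7A, had 22.48 to 40.47 CPM in syn-gRNA and 9.84 to 20.27 elsewhere, 2.38 times in the means. SNORD73A, in RPS3A, had 25.7 to 61.66 CPM against 1.93 to 15.81, 5.1 times. Of these, SNORD86, in NOP56, moved least, at 1.69 times, with log2 differences from 0.63 to 0.98.

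**Figure D3:**
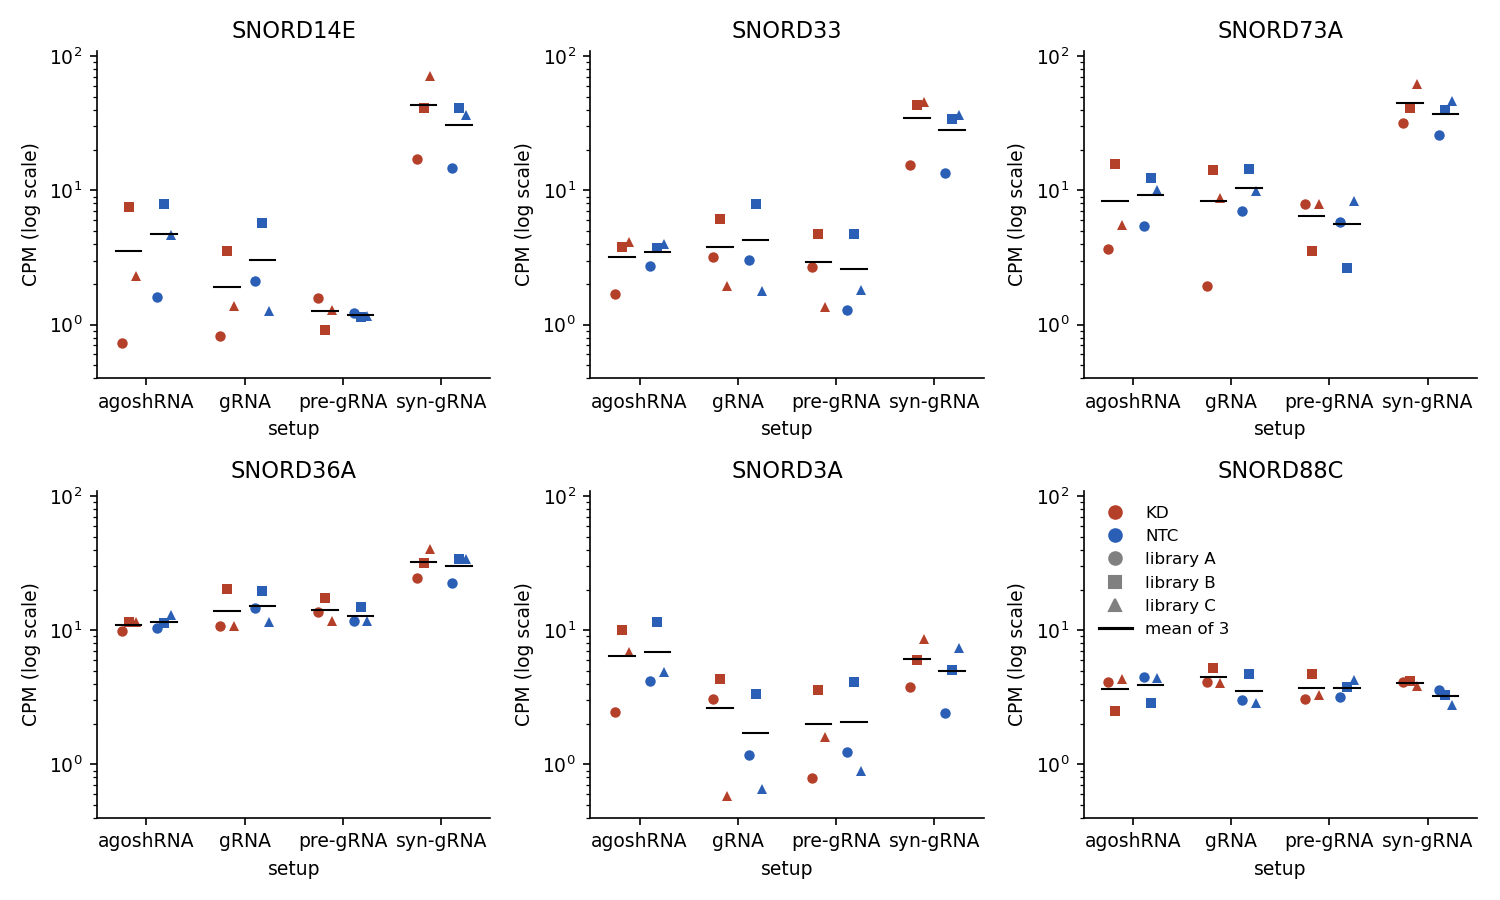
CPM (log scale) of 6 C/D snoRNA rows in each library, by setup; colours give the arm, shapes the column letter and bars the mean of 3. SNORD14E, SNORD33, SNORD73A and SNORD36A lie higher in all 6 syn-gRNA libraries than in the other 18, SNORD3A is high in agoshRNA too, and SNORD88C stays between 2.52 and 5.24 CPM throughout.

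Rows that guide U6 methylation were few and low. SNORD94 had 2.34, 3.16 and 4.37 CPM in syn-gRNA KD and 2.01, 2.62 and 2.7 in syn-gRNA NTC, 2.92 times the other libraries in the means. It was called against gRNA KD only (log2 2.54, SE 0.62, adjusted p = 0.00785). SNORD67, with 1 to 19 counts per library, was called in none. Among the snoRNAs of GAS5, a non-coding host of many snoRNAs, SNORD78 alone was in the set. It had 6.78, 6.47 and 12.37 CPM in syn-gRNA KD and 4.5, 4.87 and 7.56 in syn-gRNA NTC, with a median of 1.09 CPM elsewhere, and was called against agoshRNA KD, pre-gRNA KD and pre-gRNA NTC. The other 22 rows that carry the name of a GAS5 snoRNA had at most 5 counts in any library. They were matched by name, so they can include rows outside GAS5.

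Rows that carry names from several imprinted and non-coding host clusters gave almost no counts. These rows too were matched by name, so they can include rows outside the clusters. None of the 72 rows with names of the 15q11 cluster (mainly SNORD115 and SNORD116 types, tied to Prader-Willi syndrome) was in the set, and 69 had 0 counts throughout. None of the 87 rows with names of the 14q32 cluster (SNORD112, SNORD113 and SNORD114 types) was, and the highest count in any library there was 4. The 8 rows with names of snoRNAs from SNHG1, another non-coding host, had at most 1 count in any library.

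At the other end, 9 rows had a mean log2 difference under 0.5 over the 6 comparisons with syn-gRNA. SNORD88C (hg19 chr19:51305585-51305675) had 4.14, 4.18 and 3.82 CPM in syn-gRNA KD and 3.62, 3.3 and 2.76 in syn-gRNA NTC, inside its range of 2.52 to 5.24 elsewhere. SNORD88B, from the same host transcript, had the lowest mean difference, -0.30, SNORD118 had -0.00, SNORD4A 0.12 and SNORD96A 0.17. With SEs of 0.3 to 0.68 in these rows, small differences were not detectable. SNORD96A had 4.7 to 7.1 CPM in syn-gRNA and 4.06 to 7.86 elsewhere.

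Wide spread or few counts marked some rows whose syn-gRNA libraries stood apart. SNORD5 was higher in each of the 6 syn-gRNA libraries (21.2 to 33.56 CPM) than in each of the other 18 (1.29 to 20.99 CPM), 3.14 times in the means. It was nevertheless called in 0 of 6 comparisons, with an SE of 0.86 and DESeq2 adjusted p from 0.193 to 0.548. Its other libraries split widely, as in agoshRNA KD with 1.46, 20.99 and 3.6 CPM. SNORD82, in an intron of NCL (nucleolin), had the largest fitted mean difference, 4.23, but rested on 11 to 36 counts in syn-gRNA libraries against 0 to 6 in the others. In all, 64 of the 95 rows were called in at least 1 of the 6 comparisons and 31 in none. The share of all genes called at least once is not given here. In the single comparisons DESeq2 called 0.848% to 2.08% of all genes higher.

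The host genes that contain these snoRNAs were compared in the same fits. A host was the gene on the same strand that spans the row, and 94 of the 96 rows had one, in 53 hosts. The hosts' summed level was 51994.8 to 61829.0 CPM in syn-gRNA and 42478.8 to 63876.1 CPM elsewhere, a ratio of means of 1.11. In 92 of 93 rows the mean log2 difference of the snoRNA row exceeded that of its host, SNORD4A in RPL23A (0.12 against 0.44) being the exception. The median of the hosts' mean log2 differences was 0.35. In the single comparisons the host medians were 0.14 to 0.45, against -0.06 to 0.01 for all genes. Between 36 and 45 of the 53 hosts were above 0, beside 46.2% to 50.6% of all genes. The summed level weighs the most abundant hosts most and does not show this shift. DESeq2 called 4, 5 and 5 of the 53 hosts higher in the KD arm (against agoshRNA, gRNA and pre-gRNA, with 1.73%, 1.14% and 1.87% of all genes called higher). In the NTC arm it called 3, 3 and 5 (1.03%, 0.848% and 2.08% of all genes), and 0 hosts lower in any of the 6. HSPA8, GAS5, SNHG12, RP11-304L19.5 and RP11-329L6.2 were the hosts called. Whether counting used strand is not given in the sources used here, and host and snoRNA reads over the same bases cannot be separated.

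The rows were also grouped by the kind of host. Of the 40 rows in 17 hosts that encode a ribosomal protein, 37 were called at least once, with a median mean log2 difference of 2.24. Of the 53 tested rows in other hosts, 27 were called, with a median of 1.62. The share of all genes called at least once is not given here, so these counts compare only C/D rows with each other. Rows in ribosomal protein hosts were also better counted, with a median of 93.4 counts per library against 30.4, and the part of that difference in the calls was not tested. The ribosomal protein hosts themselves had a median of 0.33 (-0.18 to 0.68). Across the 93 rows, the row and host differences had a Pearson correlation of 0.35, given as a description since rows share hosts and libraries.

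**Figure D4:**
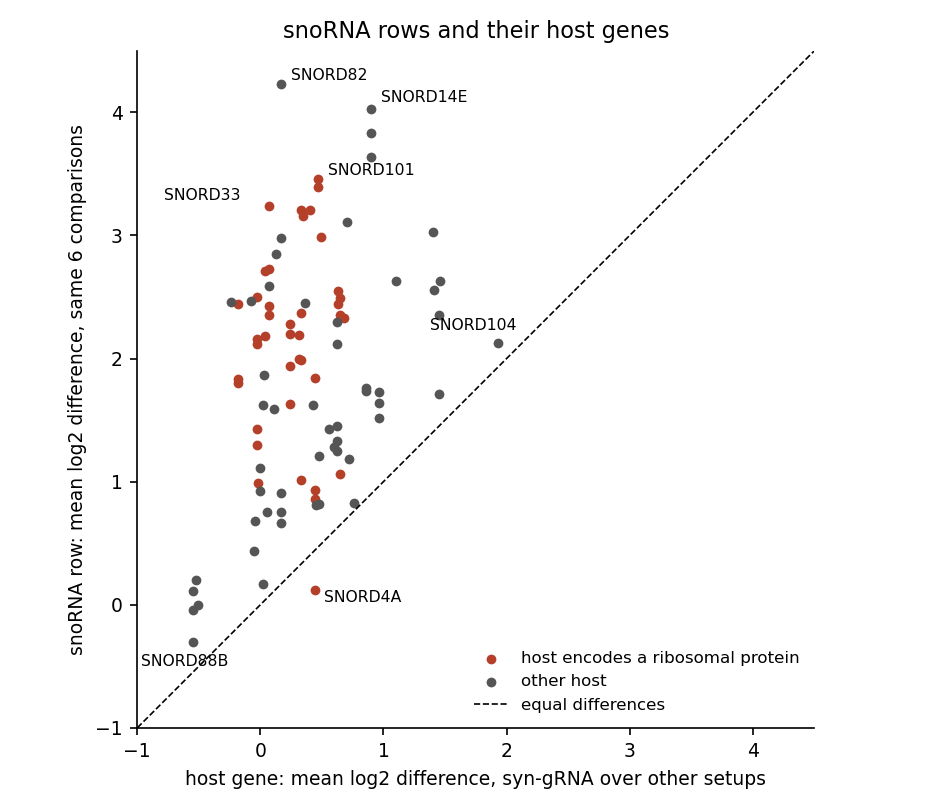
Mean log2 difference over the 6 comparisons with syn-gRNA for each of 93 C/D snoRNA rows (vertical) and for its host gene (horizontal), red where the host encodes a ribosomal protein; the dashed line marks equal differences. The 92 points above the line are rows that moved more than their host, and SNORD4A lies below it.

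Annotation and sequence features were set beside the differences. In GENCODE 29, 60 of the rows overlap an annotated exon of another transcript and 32 lie wholly outside exons. Their median mean log2 differences were 1.77 and 2.13, and 42 of 60 and 20 of 31 tested were called at least once. Rows with both motifs had a median of 2.19 (42 of 55 called) and those lacking one 1.32 (20 of 36 called). These counts too have no share of all genes beside them and compare only C/D rows with each other. GC content ran from 27.8% to 70.3% with a median of 44.1%.

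Box H/ACA snoRNAs, the SNORA genes that guide pseudouridylation, were also higher in syn-gRNA. DESeq2 called 46, 34 and 48 of 72 tested SNORA rows higher in the KD arm and 24, 29 and 50 in the NTC arm (against agoshRNA, gRNA and pre-gRNA), with 0 called lower. Their 75 rows of at least 5 mean counts summed to 481.6 to 1090.9 CPM in syn-gRNA and 111.9 to 311.4 CPM elsewhere, a ratio of 4.0 beside the 3.89 of the C/D rows. The 8 SCARNA rows, small Cajal body RNAs, had a ratio of 1.81. Ratios were 1.13 for 31 RNU rows, 1.13 for 125 short MIR rows and 0.82 for 210 other rows of at most 200 nt. The 1 RNY row had 2.16. Such ratios weigh abundant rows most. The RNU sum was 29.9 to 38.9 CPM in syn-gRNA. In gRNA and pre-gRNA it was 19.8 to 28.9 CPM, and in agoshRNA 33.3 to 57.6 CPM. Median log2 differences of syn-gRNA over another setup were 0.36 to 0.96 (RNU), -0.11 to 0.05 (MIR) and 0.09 to 0.16 (other short rows). Of 196 other short rows tested, DESeq2 called 2 to 17 higher and 1 to 3 lower per comparison. No difference between the C/D rows and these classes was tested.

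Genes for proteins of the C/D pathway were examined in the same fits. Of 37 tested genes for core proteins, assembly factors and processing enzymes, DESeq2 and edgeR each called 0 higher in every one of the 6 comparisons. At an unadjusted p under 0.05 at most 2 were higher and at most 5 lower. DESeq2 called 0.848% to 2.08% of all genes higher and edgeR 0 to 168 of 20172. By DESeq2, 11.8% to 17.8% of all genes had an unadjusted p under 0.05. With such shares, these counts do not set the 37 genes apart from all genes. Among the core proteins, fibrillarin (FBL) had log2 differences from -0.33 to 0.20, NOP56 from 0.36 to 0.55, NOP58 from 0.52 to 0.86 and SNU13 from 0.03 to 0.41. EXOSC2, a subunit of the RNA exosome that trims snoRNA ends, was the only gene that DESeq2 called lower, against pre-gRNA NTC (log2 -1.03, SE 0.3, adjusted p = 0.0253). It had 34.8 to 45.2 CPM in syn-gRNA and 64.0 to 99.0 in pre-gRNA, and edgeR did not call it. DESeq2 called 1.17% of all genes lower against pre-gRNA NTC. The medians of the 37 genes were 0.11 to 0.2.

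Between the 3 plasmid or vector setups no C/D snoRNA row was called. In the 6 comparisons among agoshRNA, gRNA and pre-gRNA, DESeq2 and edgeR both called 0 of 95 rows. Of all genes, DESeq2 called 0.0347% higher and 0.00991% lower in agoshRNA than in gRNA (KD), 0.0297% and 0.0149% for agoshRNA against pre-gRNA (KD), 0.0397% and 0.00991% for agoshRNA against gRNA (NTC) and 0.0248% and 0.00991% for agoshRNA against pre-gRNA (NTC). It called 0% between gRNA and pre-gRNA in either arm. At an unadjusted p under 0.05, DESeq2 gave 1, 6 and 0 rows in the KD arm (agoshRNA against gRNA, agoshRNA against pre-gRNA, gRNA against pre-gRNA), beside 1.75%, 2.22% and 0.233% of all genes. In the NTC arm it gave 3, 6 and 0 rows, beside 1.83%, 2.81% and 0.516%. The edgeR counts at that level were 1, 4 and 0 (KD), beside 358, 431 and 65 of 20172 genes. In the NTC arm they were 2, 4 and 0, beside 355, 505 and 125 genes. The medians were -0.09, 0.24 and 0.32 (KD) and -0.13, 0.36 and 0.48 (NTC). The agoshRNA B and gRNA B libraries, with the highest summed levels of their groups, weighed on these medians: the first of them was -0.64 without agoshRNA KD B and 0.39 without gRNA KD B.

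Depletion of ciRS-7 was compared with its control within each setup, in fits of 6 libraries. DESeq2 called 0 of 76 tested rows in agoshRNA, 0 of 85 in gRNA, 0 of 83 in pre-gRNA and 0 of 90 in syn-gRNA, where 0% of all genes were called in each. At an unadjusted p under 0.05 DESeq2 gave 0 rows in each setup (0%, 0.0925%, 0.0107% and 0.297% of all genes). The edgeR test, which also called 0, gave 0, 0, 1 and 1 rows at that level. Beside them stood 3 of 17806, 34 of 18371, 11 of 18717 and 176 of 18513 genes. The row with the smallest p in syn-gRNA was SNORD78, with 6.78, 6.47 and 12.37 CPM in KD and 4.5, 4.87 and 7.56 in NTC, which overlap (DESeq2 log2 0.58, SE 0.3, unadjusted p = 0.055). The authors' deposited table gives an adjusted p of 1 for every one of the 96 rows, and an unadjusted p under 0.05 for 0, 1, 1 and 1 of them. In these fits, which ignore the column letter, the median SE of a row was 0.65, 0.6, 0.59 and 0.36. Log2 differences of less than about 2 such SEs could not be told from 0 there in a single row. With the letter as a block the median SE was 0.42, 0.42, 0.41 and 0.23, and the blocked counts at an unadjusted p are given below.

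Over the tested rows, the median log2 difference of KD over NTC was -0.04 and -0.05 in agoshRNA and gRNA, 0.18 in pre-gRNA and 0.22 in syn-gRNA, against 0.06, 0.02, 0.01 and 0.0 for all genes. In syn-gRNA, 79 of 90 rows were above 0. Without syn-gRNA NTC A that median was -0.01, and without syn-gRNA KD A it was 0.46. KD and NTC libraries of the same column letter deviated together, so they were also compared letter by letter, a count chosen after the values were seen. KD exceeded NTC in all 3 letters in 45 of 90 rows in syn-gRNA (12.9% of all genes) and 28 of 83 in pre-gRNA (19.5%), but in 7 of 85 in gRNA (7.04%) and 2 of 76 in agoshRNA (10.5%). KD lay below NTC in all 3 letters in 2 (11.3%), 4 (16.9%), 18 (15.8%) and 10 rows (11.3%). Ignoring letters, the 3 KD libraries lay above all 3 NTC libraries in 6 rows in syn-gRNA (2.65% of all genes), 1 in pre-gRNA (0.524%) and 0 in gRNA (0.474%) and agoshRNA (0.129%). They lay below all 3 in 1 row in syn-gRNA (SNORD124; 2.23% of all genes), 1 in pre-gRNA (SNORD15B; 0.604%), 1 in agoshRNA (SNORD95; 0.741%) and 0 in gRNA (1.83%). With the letter as a block, DESeq2 still called 0 rows in every setup. At an unadjusted p under 0.05 the blocked fit gave 17 of 90 rows in syn-gRNA, beside 241 of 18513 genes. The counts were 2 of 83 in pre-gRNA (1011 of 18717 genes), 1 of 76 in agoshRNA (105 of 17806) and 0 of 85 in gRNA (113 of 18371). In the blocked fit 80 of the 90 syn-gRNA rows were above 0.

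**Figure D5:**
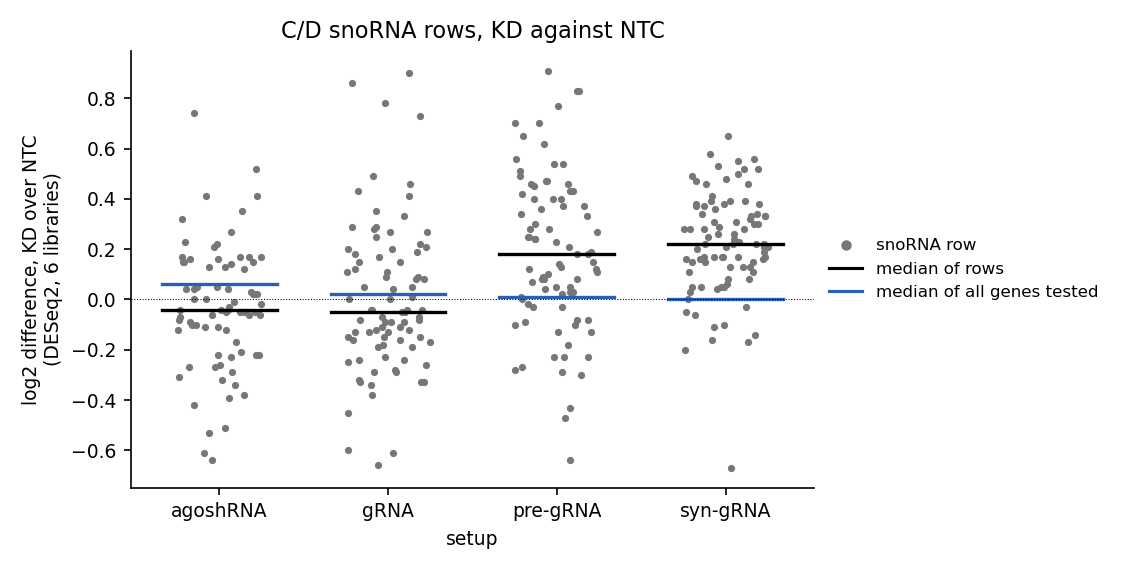
Log2 difference of KD over NTC for each tested C/D snoRNA row in the 4 setups (DESeq2, 6 libraries each). Black bars mark the median of the rows (-0.04, -0.05, 0.18 and 0.22) and blue bars that of all genes; no row was called in any setup.

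The difference of this KD effect between setups was tested directly for the 6 pairs of setups. DESeq2 and edgeR called 0 of 95 rows in each pair, where 0% of all genes were called. Without the column letter as a block, neither tool gave a row with an unadjusted p under 0.05. By DESeq2 that level was met by 0.144%, 0.223% and 0.144% of all genes for syn-gRNA minus agoshRNA, gRNA and pre-gRNA. For agoshRNA minus gRNA, agoshRNA minus pre-gRNA and gRNA minus pre-gRNA the shares were 0.149%, 0.154% and 0.178%. With the letter as a block within each setup, DESeq2 again called 0 rows. At an unadjusted p under 0.05 that fit gave 5, 5 and 3 of 95 rows for the pairs with syn-gRNA, beside 378, 581 and 111 of 20172 genes. For the other pairs, in the same order, it gave 1, 7 and 5 rows, beside 150, 1068 and 1840 genes.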

How the data were processed

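Counts per gene were deposited by the authors in 4 tables with identical counts. Per the submitters' processing notes, Trim Galore, STAR 2.7.3a, featureCounts, DESeq2 and the hg19 genome were used; counting settings and the annotation release are not given in the sources used here. Columns of normalized counts (24) were not used. The authors' deposited log2 fold changes and p-values, one comparison per setup, were read only for the values credited to them. Members and gene lists were chosen with earlier results of these data known.

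CPM is the count divided by the library total over all rows, times 1000000. DESeq2 1.42.0 (Wald test, R 4.3.3) was fitted to every gene that reached 10 counts in 3 or more libraries. Setups were compared in 1 fit of 24 libraries with 1 coefficient per group, and KD with NTC in fits of 6 libraries. Benjamini-Hochberg adjustment in DESeq2 used its default independent filtering on mean count, and in edgeR took all genes fitted. Library totals of 10994974 to 16233777 counts set the precision. Alternatives were edgeR 4.0.16, TMM factors, no filter, 6-library fits, the column letter as a block, and each library left out. Scripts were tested on simulated data. Column letters A, B and C are not linked to replicate numbers by the labels. Same-letter KD and NTC libraries deviated together over 13835 genes (r from 0.361 to 0.975), so the letter was taken as pairing them within a setup. The mean r with other letters was -0.693 to -0.062. Deviations were taken from the mean of each group, so a positive same-letter r makes those values negative on balance, and they are no separate evidence.

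Named rows were the 8 with the highest mean CPM, the 3 with the smallest adjusted p in each comparison with syn-gRNA, the smallest p elsewhere, the 3 lowest and 3 highest mean differences, the most abundant of each role, and the 3 on each side of the limit. Other rows named (SNORD33, SNORD34, SNORD35A, SNORD4A, SNORD96A, SNORD53, SNORD124, SNORD15B, SNORD95) were chosen after their values were seen. Figures used Python 3.11.15 and matplotlib 3.10.9. Levels set between rows are per kb of row length.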

Additional observations from a re-analysis of the deposited data

How the results depend on the processing

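In each of the 29 settings run for the comparisons with syn-gRNA, 0 C/D snoRNA rows were called lower. With edgeR in place of DESeq2, the counts called higher were 26 against agoshRNA KD, 11 against gRNA KD, 1 against agoshRNA NTC, 0 against gRNA NTC and 27 against pre-gRNA NTC. Fitting each pair of groups alone, with its 6 libraries, called 60 against gRNA NTC. Leaving out each library in turn gave 16 to 73 (agoshRNA KD), 11 to 57 (gRNA KD), 29 to 52 (pre-gRNA KD), 5 to 49 (agoshRNA NTC), 4 to 42 (gRNA NTC) and 25 to 57 (pre-gRNA NTC). Besides the C libraries of syn-gRNA, counts moved over 1.5 times without agoshRNA KD A (21), agoshRNA KD C (31), gRNA KD A (15), gRNA KD C (15), syn-gRNA KD B (33 and 18, against agoshRNA and gRNA), agoshRNA NTC A (8), agoshRNA NTC C (18), gRNA NTC A (8), gRNA NTC C (7), pre-gRNA NTC A (28) and syn-gRNA NTC B (7, 6 and 25). The cause was not tested.

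Of 1903 alternative values for single named rows, 1608 kept direction and side of the threshold, 221 lost the call, 39 gained it and 35 changed sign. SNORD88B against agoshRNA NTC was 0.01 as reported, -0.01 with edgeR, -0.01 with TMM factors and -0.0 in the 6-library fit. SNORD88C against gRNA NTC was 0.0, and -0.02 with edgeR and -0.01 with TMM factors. With each library left out in turn, log2 differences crossed 0 for SNORD3A (-0.57 to 0.35 against agoshRNA KD, with 0.11 without syn-gRNA KD A, and -0.9 to 0.2 against agoshRNA NTC) and SNORD88B (-0.33 to 0.09 against agoshRNA KD, -0.45 to 0.13 against gRNA KD, -0.27 to 0.72 against agoshRNA NTC). They did so for SNORD67 (-0.43 to 0.56 against pre-gRNA KD, -0.22 without syn-gRNA KD A), SNORD23 (-0.25 to 0.72 against pre-gRNA NTC, -0.05 without syn-gRNA NTC C) and SNORD63 (-0.01 to 0.83 against gRNA NTC). SNORD88C crossed 0 against agoshRNA KD (-0.06 to 0.34), gRNA KD (-0.21 to 0.05), pre-gRNA KD (-0.02 to 0.54) and gRNA NTC (-0.13 to 0.31, -0.05 without syn-gRNA NTC A, -0.04 without syn-gRNA NTC B). SNORD118 crossed 0 against agoshRNA KD (-0.08 to 0.93), gRNA KD (-0.39 to 0.31, -0.18 without gRNA KD C), pre-gRNA KD (-0.6 to 0.26, 0.03 without syn-gRNA KD B), gRNA NTC (-0.39 to 0.24, 0.14 without gRNA NTC C) and pre-gRNA NTC (-0.12 to 0.49, -0.03 without pre-gRNA NTC C). These are rows near 0, and the cause was not tested.

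With the column letter as replicate block, 0 rows were called in each setup and in each difference of KD effects, as without it; at an unadjusted p under 0.05 the blocked fits gave 1, 0, 2 and 17 rows in agoshRNA, gRNA, pre-gRNA and syn-gRNA (0.59%, 0.615%, 5.4% and 1.3% of all genes). No paired analysis was possible between setups because nothing ties a letter of one setup to that of another. Rows near the limit hold few counts per library, which limits what could be detected there.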
